A study of Mus musculus with 12 samples.

Results

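The alternate isoforms of the clustered protocadherins were described across 12 hypothalamus libraries of mice. They were the rows of the deposited expression table whose symbol is Pcdha, Pcdhb, Pcdhga or Pcdhgb followed by a number, which gave 51 of 32494 listed genes: 10 alpha, 22 beta, 12 gamma A and 7 gamma B isoforms. Messenger RNA was sequenced from male mice with floxed Smc3, the gene of a cohesin subunit, and every mouse received tamoxifen. Grouping followed the titles: mice without the Camk2a-cre/ERT2 transgene were WT (n = 7) and mice with it were cKO (n = 5). Tissue was taken 5 weeks after tamoxifen, an age of 8 weeks stands in the growth protocol, with no step named, and the titles of both groups carry the word control. The titles number the mice, so each library was taken as 1 mouse.

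Clustered protocadherins are adhesion molecules on the surface of neurons. Each neuron switches on its own few alternate isoforms, and the resulting combination lets its branches tell self from non-self. Every alternate isoform starts at a promoter of its own, and these promoters lie one after another along the 3 arrays (alpha, beta and gamma). Alpha and gamma variable exons are spliced to constant exons shared by the array, while a beta isoform is a single exon. CTCF binds at most of these promoters and at distal enhancers, and cohesin, the ring that holds Smc3, forms the loops that bring promoter and enhancer together. Camk2a is a driver of forebrain excitatory neurons, so other cells of the tissue are meant to keep their floxed Smc3 in this model. Recombination by cell type was not tested here.

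The check of the targeted gene went against its label. Smc3 was 81.6 ± 3.14 CPM (SD, n = 7) in WT and 131 ± 10.3 CPM (SD, n = 5) in the libraries labelled cKO. CPM, the deposited unit, are a gene's reads after scaling every library to nearly, but not exactly, the same total. No WT library was as high as the lowest labelled cKO library, at 116 CPM. The log2 fold change was 0.67 with a standard error (SE) of 0.05 (limma, Benjamini-Hochberg adjusted p = 3.06e-05), and the two-sided exact permutation test gave p = 0.00126, the smallest that 792 splits allow. Which exons are floxed is not given in the sources used here, and the groups keep their labels, and higher or lower always means in the libraries labelled cKO. Recovered depth was 17.1 to 24.0 M reads (megareads) in 11 libraries and 68.7 M in WT 1, and 100% of deposited values were whole multiples of 1 read. The 10 hypothalamic neuron markers summed to 76.5 to 678 CPM in WT and 170 to 753 CPM in labelled cKO, lowest in WT 5, WT 4 (95.4), cKO 12 and cKO 13 (237) and highest in cKO 14. The 6 oligodendrocyte markers ran from 8677 to 9941 CPM in these 4 low libraries and from 4093 to 6920 CPM in the other 8. Markers of thalamic neurons were also present, and their score (mean log2(CPM + 1) of 9 genes) was 6.24 to 7.19 in WT and 5.65 to 6.43 in the libraries labelled cKO, with 3 of 9 genes lower past the threshold and 0 higher. The shares over all tested genes were 7.6% lower and 6.54% higher.

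Of the 51 isoforms, 48 had a mean of at least 1 CPM and were tested, with 18 to 1166 reads per isoform and library. Of these, 12 fell in the libraries labelled cKO at an adjusted p under 0.05 and 0 rose (limma on log2(CPM + 1), adjusted over all 15359 tested genes). The share over all tested genes was 14.1%, with 7.6% lower and 6.54% higher, against 25% of the isoforms. No isoform was higher at an unadjusted p under 0.05 in that test, and edgeR and DESeq2 on the recovered reads also called 0 higher, with 12 and 15 lower, where 13.7% and 17.9% of all tested genes passed. Testing all genes above 0 called 7 of 51 isoforms and a minimum mean of 5 CPM called 8 of 29, against backgrounds of 4.86% and 16.3%. Backgrounds of 14.1%, 15.8%, 13.3% and 13% held for a pseudocount of 0.1, median centring, quantile normalization and eBayes without trend, which called 12, 12, 10 and 12. With the score of the thalamic markers as covariate, 2 isoforms passed, 1 of them among the 12, against a background of 4.47%. The log2 fold change was below 0 for 39 of 48 isoforms, against 47.5% of all tested genes. Its median was -0.20 over the isoforms and 0.01 over all tested genes. The 12 were spread unevenly over the arrays: 4 of 8 tested alpha, 0 of 21 beta, 5 of 12 gamma A and 3 of 7 gamma B isoforms. A difference between arrays was not itself tested. In bulk tissue, fewer cells that use an isoform and less RNA per cell cannot be told apart.

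**Figure D1:**
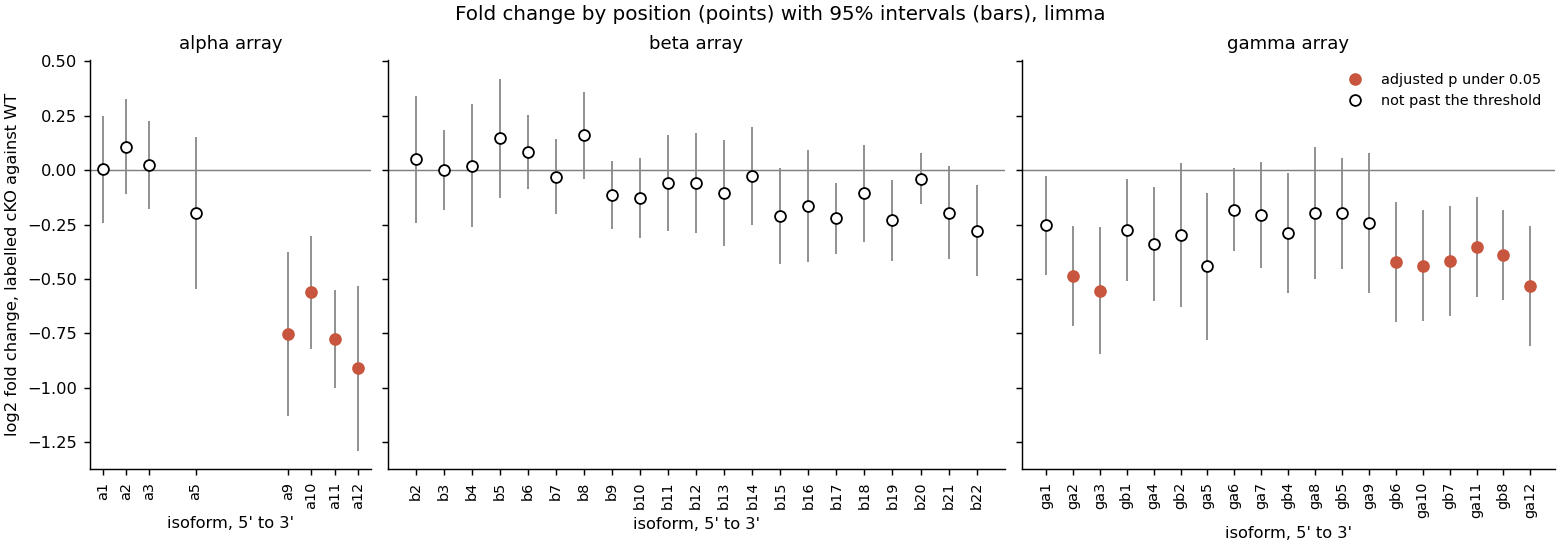
Log2 fold change of each tested isoform (libraries labelled cKO minus WT, limma on log2(CPM + 1), with its 95% confidence interval) against its position from the 5′ end of its array, in 1 panel per array. Alpha isoforms 9 to 12 lie between -0.91 and -0.56 while alpha isoforms 1 to 5 lie between -0.20 and 0.11, beta values slope from 0.01 (median of numbers up to 11) to -0.17, and all 19 gamma values lie below 0.

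In the alpha array the libraries labelled cKO had less of the isoforms with high numbers and about the same of those with low numbers. Each listed isoform numbered 9 or more (Pcdha9, Pcdha10, Pcdha11 and Pcdha12) fell, to between 0.46 and 0.575 of the WT mean CPM. The 4 tested isoforms numbered 5 or less (Pcdha1, Pcdha2, Pcdha3 and Pcdha5) had a median log2 fold change of 0.01, from -0.20 to 0.11, and none passed the threshold or an unadjusted p under 0.05. With edgeR and DESeq2 the calls were the same 4 isoforms and 0 of the low-numbered 4. With the thalamic score as covariate only Pcdha11 of these 4 passed (limma, adjusted p = 0.0168), and the log2 fold changes of Pcdha9, Pcdha10 and Pcdha12 were -0.69, -0.41 and -0.74 (limma, adjusted p = 0.104, 0.126 and 0.0761). The difference between the groups of isoforms was not itself tested. Alpha isoforms share 2860 to 2864 exon bases with each other, antisense genes overlap 3338 exon bases of Pcdha11 and 531 of Pcdha12, and how such reads were counted is not given in the sources used here. Nor could the genes behind the symbols Pcdha10 and Pcdha11 be checked in the authors' annotation, so the positions and lengths of these isoforms rest on the symbols.

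Pcdha12, the last alternate isoform of the array, was between 3.77 and 5.87 CPM in WT, with a median of 4.99. It was 1.76 CPM in cKO 8, 2.94 in cKO 9, 1.77 in cKO 12, 1.14 in cKO 13 and 4.02 in cKO 14. Only cKO 14 reached into the WT range, just above its lowest library. The means were 5.02 ± 0.726 CPM (SD, n = 7) and 2.33 ± 1.15 (SD, n = 5), a log2 fold change of -0.91 with an SE of 0.18 (limma, adjusted p = 0.00767).

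Pcdha11 separated the groups completely. Its WT libraries ran from 2.65 to 4.09 CPM with a median of 3.59. The labelled cKO libraries held 1.26 CPM (cKO 8), 1.42 (cKO 9), 1.87 (cKO 12), 1.23 (cKO 13) and 1.95 (cKO 14), all below every WT library. Its log2 fold change was -0.78 with an SE of 0.11 (limma, adjusted p = 0.00203), the lowest adjusted p among the alpha isoforms. Pcdha11 and the gamma isoform Pcdhgb8 were the only 2 of 48 isoforms whose CPM ranges did not overlap, where 6.73% of all tested genes had such ranges and 3.2% were lower.

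Pcdha9 was the most abundant alpha isoform per length in WT, at 2.63 CPM per kb of exon bases not shared with other protocadherins. It was between 5.21 and 8.14 CPM in WT, with a median of 6.18. In the labelled cKO libraries it was 3.02 CPM in cKO 8, 4.46 in cKO 9, 3.45 in cKO 12, 1.71 in cKO 13 and 5.39 in cKO 14. Again cKO 14 alone lay within the WT range, and cKO 13 was lowest. This gave a log2 fold change of -0.75 with an SE of 0.17 (limma, adjusted p = 0.0151).

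Pcdha10 was between 2.42 and 3.59 CPM in WT, with a median of 2.67. Its labelled cKO values were 1.38 CPM in cKO 8, 1.37 in cKO 9, 1.68 in cKO 12, 1.19 in cKO 13 and 2.60 in cKO 14. The same mouse, cKO 14, was the only one inside the WT range. Its log2 fold change was -0.56 with an SE of 0.12 (limma, adjusted p = 0.0119).

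At the other end of the array, Pcdha1 was 1.39 ± 0.320 CPM (SD, n = 7) in WT and 1.39 ± 0.305 (SD, n = 5) in the libraries labelled cKO. The 95% confidence interval of its log2 fold change was -0.24 to 0.25. Pcdha2 was 3.39 ± 0.511 CPM in WT and 3.74 ± 0.619 in labelled cKO, with an interval of -0.11 to 0.33 around a log2 fold change of 0.11. Both groups overlapped widely for both isoforms. Pcdha3 was 3.81 and 3.91 CPM in the same order of groups, and Pcdha5 3.36 and 2.95 CPM. In labelled cKO, Pcdha5 was spread from 1.47 CPM in cKO 13 to 4.38 in cKO 14. The remaining listed alpha isoforms were too low to test: Pcdha8 was 0.458 CPM in WT and 0.479 in labelled cKO, and Pcdha6 was listed at 0 in 10 libraries, with 2 reads or fewer in any library. The other alpha numbers were not analysed here.

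**Figure D2:**
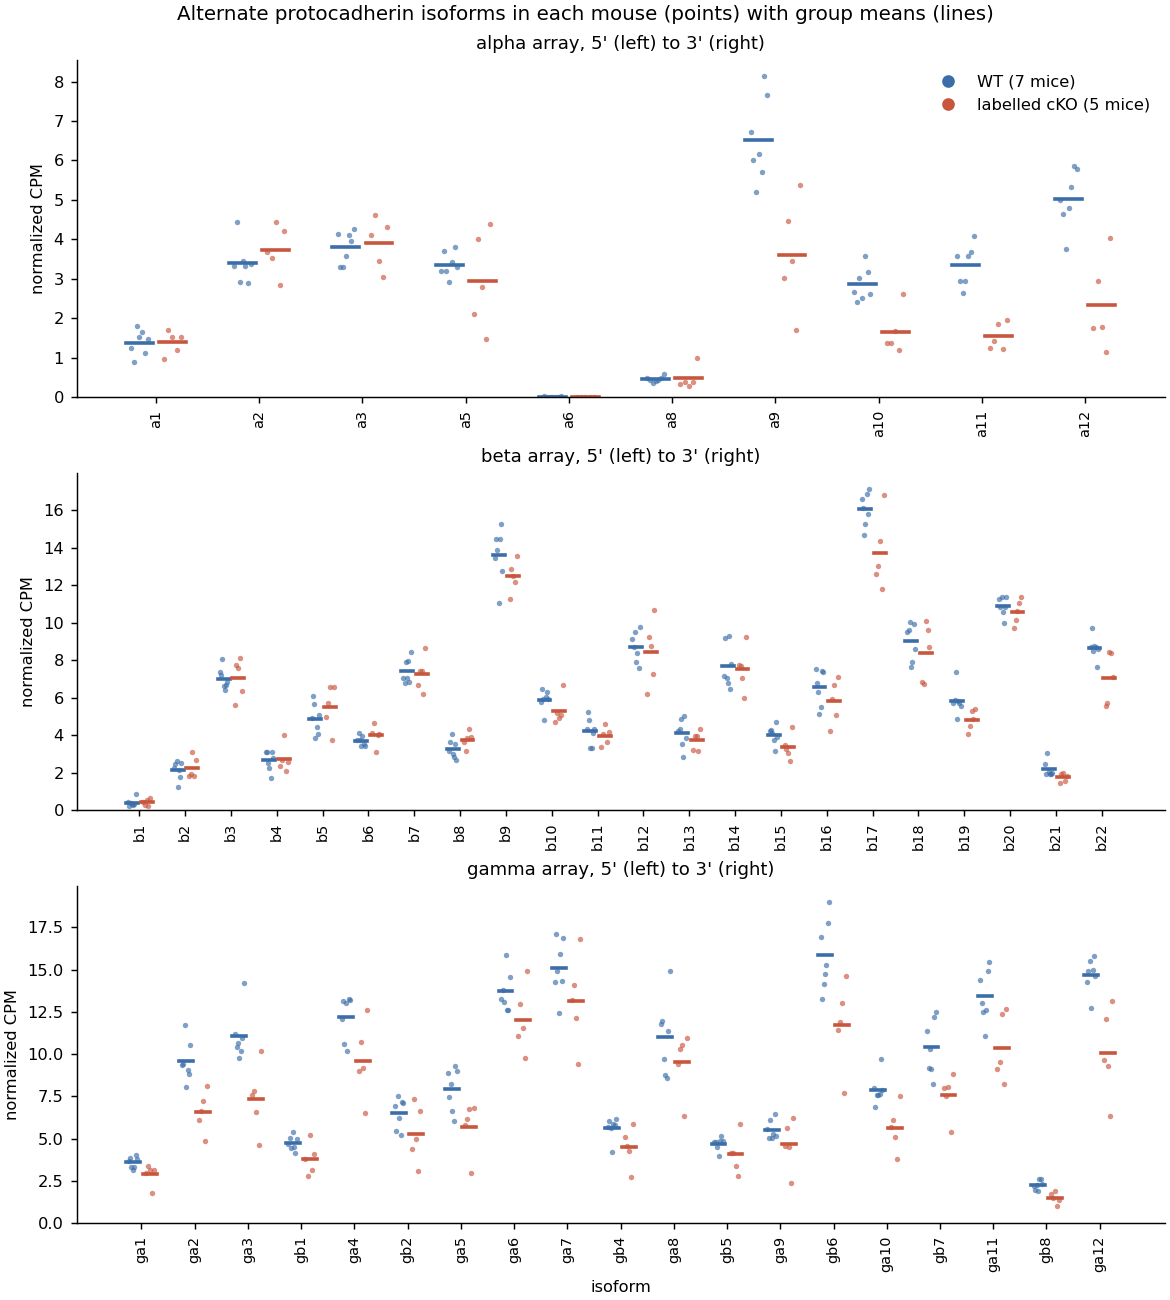
Normalized CPM of all 51 alternate isoforms along the alpha, beta and gamma arrays, with 1 point per mouse in WT (7 mice) and labelled cKO (5 mice) and a line at the group mean. For Pcdha9 to Pcdha12 the labelled cKO points sit below the WT points apart from cKO 14, which for Pcdha11 is also below, at 1.95 against a WT minimum of 2.65 CPM.

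Summed over the array, alternate alpha isoforms were 30.2 ± 2.57 CPM (SD, n = 7) in WT and 21.6 ± 5.77 CPM (SD, n = 5) in labelled cKO, and the ranges overlapped (26.3 to 33.2 and 14.2 to 29.4 CPM). Split by number, isoforms 1 to 6 summed to 11.96 ± 0.494 CPM in WT and 11.99 ± 2.38 in labelled cKO. Isoforms 7 to 12 summed to 18.2 ± 2.30 CPM in WT, from 15.02 to 21.4, and to 9.60 ± 3.505 in labelled cKO, from 5.65 to 14.97. These last ranges did not overlap, but cKO 14 and WT 5 were nearly level.

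Shares within the array do not depend on how libraries were scaled to each other. Isoforms 7 to 12 gave 60.2% ± 2.66 (SD, n = 7) of the summed alpha CPM in WT, from 57.2% to 64.5%. In the libraries labelled cKO they gave 43.6% ± 4.26 (SD, n = 5), from 39.8% in cKO 13 to 50.9% in cKO 14. The 95% Wilson interval of the cKO 14 share, over 497 reads, was 46.5% to 55.3%, and that of the lowest WT share was 53.1% to 61.2%, which overlapped it. These intervals cover counting error only, not the spread between mice. The mean position of an alpha read, counted in isoform numbers, was 7.43 ± 0.213 in WT and 6.08 ± 0.383 in labelled cKO, without overlap (7.16 to 7.78 and 5.70 to 6.70). The effective number of isoforms, the exponential of the Shannon entropy of the shares, was 7.78 in WT and 7.80 in labelled cKO. The isoform with the largest mean share was Pcdha9 in WT and Pcdha3 in labelled cKO.

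Pcdha9 was the leading alpha isoform by CPM in WT, at 21.5% ± 2.06 of the array, and held 16.2% ± 2.54 in labelled cKO. Pcdha12 held 16.6% ± 1.13 in WT and 10.3% ± 2.46 in labelled cKO, and Pcdha11 held 11.1% ± 0.85 and 7.34% ± 1.33. Pcdha3 went the other way, from 12.6% ± 0.72 to 18.6% ± 3.20, and Pcdha2 from 11.3% ± 2.08 to 17.9% ± 3.24. Ranges of the groups did not overlap for Pcdha3, Pcdha9, Pcdha11 and Pcdha12, which were the only 4 of 51 isoforms (7.84%) where this held, and they did overlap for Pcdha2. Shares sum to 100%, so a higher share of Pcdha3 went with a CPM near that of WT. With the C-type isoforms counted in the denominator, 7 isoforms had ranges that did not overlap. They were all lower in labelled cKO, and Pcdha3 was no longer among them.

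**Figure D3:**
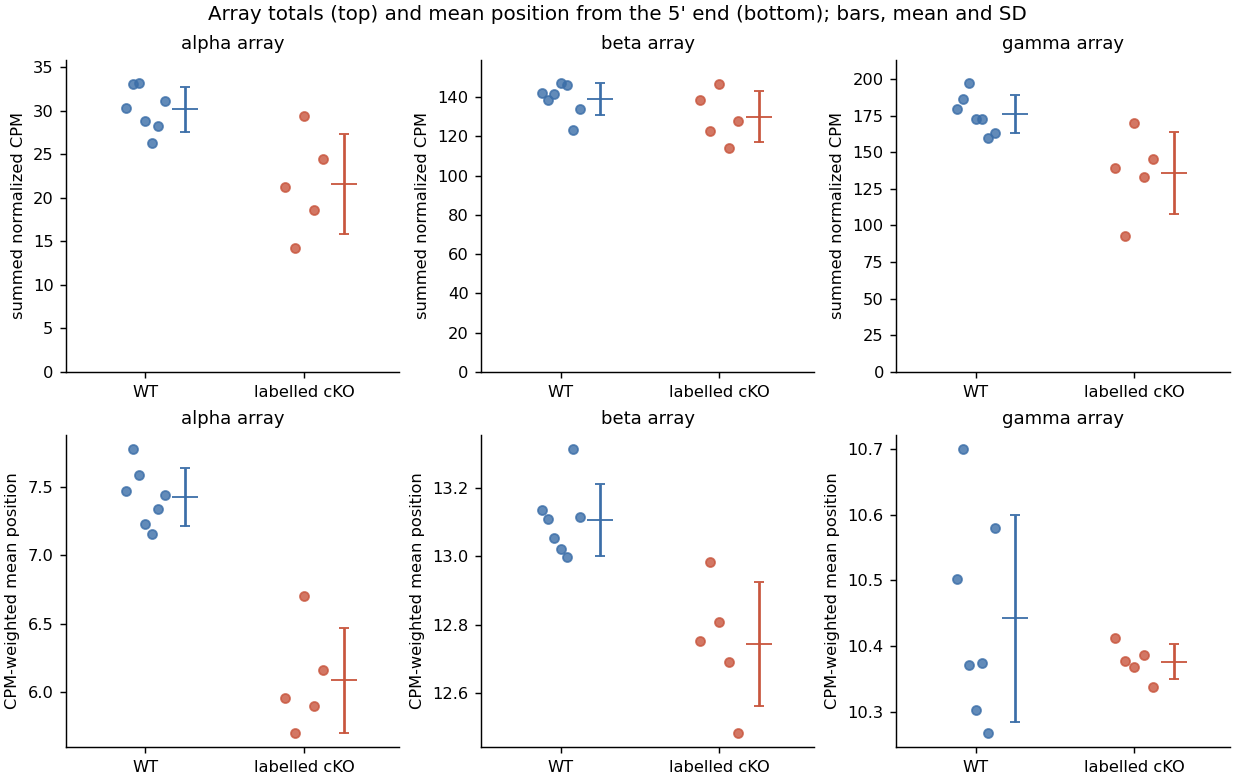
Summed normalized CPM (top, axes from 0) and CPM-weighted mean position counted from the 5′ end (bottom, axes not from 0) for the alpha, beta and gamma arrays, with 1 point per mouse in WT (7 mice) and labelled cKO (5 mice) and the group mean and SD beside them. The mean position separates the groups for alpha (7.43 and 6.08) and narrowly for beta (13.1 and 12.7), and the groups overlap for gamma (10.4 in both) and in all 3 panels of summed CPM.

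None of the 21 tested beta isoforms passed the threshold with limma, edgeR called 0 and DESeq2 called 2, Pcdhb17 and Pcdhb22. At an unadjusted p under 0.05 there were 3 of 21, against 31.1% of all tested genes. The median beta log2 fold change was -0.06. Position within the array went along with the small differences. The 10 tested isoforms numbered up to 11 had a median of 0.01, with 4 of 10 below 0. The 11 numbered 12 to 22 had a median of -0.17, with 11 of 11 below 0. The 3 isoforms with an unadjusted p under 0.05, named after their values were seen, were Pcdhb17, Pcdhb19 and Pcdhb22, all among the latter 11.

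Pcdhb22, the last beta isoform, had the lowest fold change of the array. It was between 7.64 and 9.71 CPM in WT, with a median of 8.68. The labelled cKO libraries were 5.54 CPM (cKO 8), 5.74 (cKO 9), 8.44 (cKO 12), 8.36 (cKO 13) and 7.10 (cKO 14). Libraries cKO 12 and cKO 13 lay within the WT range and the other 3 below it. Its log2 fold change was -0.28 with an SE of 0.10 (limma, adjusted p = 0.0711). It passed the threshold with DESeq2 (adjusted p = 0.0443), without cKO 12 (limma, 0.0371) and without cKO 13 (limma, 0.0459).

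Pcdhb8 had the highest fold change among beta isoforms, 0.16, from 3.27 ± 0.498 CPM (SD, n = 7) in WT and 3.76 ± 0.433 (SD, n = 5) in labelled cKO, with a 95% interval of -0.04 to 0.36. Pcdhb9, the beta isoform with most RNA per length in WT at 4.46 CPM per kb, was 13.6 ± 1.39 CPM and 12.5 ± 0.838 CPM, with an interval of -0.27 to 0.04. Pcdhb1, at the 5′ end, was too low to test, at 0.393 CPM in WT and 0.432 in labelled cKO.

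The beta array as a whole held 139 ± 8.27 CPM in WT and 130 ± 12.9 CPM in labelled cKO, with overlapping ranges. Isoforms numbered 12 to 22 gave 60.3% of beta CPM in WT and 57.8% in labelled cKO. Those ranges nearly touched, at 59.3% in both WT 5 and cKO 14. Mean position was 13.1 ± 0.104 and 12.7 ± 0.181, and its ranges likewise met closely. No single beta isoform's share moved by more than 1.06 points, and no beta share had ranges that did not overlap.

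All 19 gamma A and B isoforms had a log2 fold change below 0, where 47.5% of all tested genes did. They share 2116 to 3157 exon bases with other protocadherins, and how such reads were counted is not given in the sources used here. The 19 values are thus not separate observations. Of these isoforms, 8 (42.1%) fell past the threshold, against 7.6% of all tested genes. The median was -0.35 for gamma A and -0.30 for gamma B. They went along with position only weakly: the first 10 isoforms along the array had a median of -0.29 with 2 past the threshold, and the last 9 a median of -0.39 with 6 past it. The latter count was 2 without WT 1, WT 11 or cKO 13. It was 3 without WT 15 or cKO 9 and 4 without WT 7 or cKO 8, while the former stayed at 2 in these fits. Over all tested genes, 1158 (without WT 1) to 2007 (without WT 15) passed in these fits, against 2172 in the main fit. The count of the last 9 was 1 when all genes above 0 were tested and 0 with the thalamic score as covariate. That of the first 10 was 2 and 1, against backgrounds of 4.86% and 4.47%. The 1 was Pcdhgb1, which did not pass in the main fit. The 8 were Pcdhga2, Pcdhga3, Pcdhgb6, Pcdhga10, Pcdhgb7, Pcdhga11, Pcdhgb8 and Pcdhga12, the last 6 of which follow one another at the 3′ end of the array.

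Pcdhga12, the last of them, was between 12.7 and 15.8 CPM in WT, with a median of 14.9. It was 9.65 CPM in cKO 8, 12.1 in cKO 9, 9.33 in cKO 12, 6.31 in cKO 13 and 13.1 in cKO 14. As with Pcdha9, Pcdha10 and Pcdha12, cKO 14 lay within the WT range and cKO 13 was lowest. For Pcdhga12 the log2 fold change was -0.53 with an SE of 0.13 (limma, adjusted p = 0.0179). The call was lost with the thalamic score as covariate (limma, adjusted p = 0.154, log2 fold change -0.42).

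Pcdhgb8 was a low isoform that separated the groups, from 1.92 to 2.60 CPM in WT with a median of 2.23. Its labelled cKO values were 1.72 CPM in cKO 8, 1.47 in cKO 9, 1.91 in cKO 12, 1.04 in cKO 13 and 1.36 in cKO 14. Library cKO 12 was only just below WT 6, the lowest WT library. The log2 fold change was -0.39 with an SE of 0.10 (limma, adjusted p = 0.0195), and the call was lost when genes of any level above 0 were tested (limma, adjusted p = 0.0514) and with the thalamic score as covariate (limma, adjusted p = 0.0908, log2 fold change -0.40).

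Near the 5′ end, Pcdhga3 was between 9.76 and 14.2 CPM in WT, with a median of 10.6. It was 7.59 CPM in cKO 8, 7.84 in cKO 9, 6.58 in cKO 12, 4.65 in cKO 13 and 10.2 in cKO 14, where only the last reached the WT range. The log2 fold change was -0.55 with an SE of 0.14 (limma, adjusted p = 0.0196). Its neighbour Pcdhga2 was between 8.06 and 11.7 CPM in WT, with a median of 9.36. In labelled cKO it was 6.13, 6.62, 7.23, 4.84 and 8.11 CPM, in the same order of mice. Here too cKO 14 alone met the WT range, by a narrow margin. Pcdhga2 had a log2 fold change of -0.49 with an SE of 0.11 (limma, adjusted p = 0.013). With the thalamic score as covariate both calls were lost (limma, adjusted p = 0.096 for Pcdhga3 and 0.0572 for Pcdhga2). Their log2 fold changes there were -0.56 and -0.53.

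The other 4 called gamma isoforms stood nearer the threshold. Pcdhgb6 was 15.9 ± 2.08 CPM (SD, n = 7) in WT and 11.7 ± 2.57 (SD, n = 5) in labelled cKO, a log2 fold change of -0.42 (limma, adjusted p = 0.042). Its adjusted p was 0.0559 to 0.0816 without any one of WT 1, WT 6, WT 7, WT 11, WT 15, cKO 8, cKO 9 or cKO 13. Pcdhga11 was 13.4 ± 1.54 and 10.4 ± 2.001 CPM, a log2 fold change of -0.35 (limma, adjusted p = 0.0435). It was lost without WT 1, WT 4, WT 7, WT 11, WT 15, cKO 8, cKO 9 or cKO 13 (limma, adjusted p = 0.0574 to 0.103). These 2 calls therefore held in 4 of 12 fits that left out a mouse, and both were lost with quantile normalization. Pcdhgb7 (10.4 ± 1.65 and 7.56 ± 1.29 CPM, log2 fold change -0.42, limma adjusted p = 0.0333) was lost without WT 1, WT 11, WT 15, cKO 9 or cKO 13, at 0.0552 to 0.0709. Pcdhga10 (7.89 ± 0.880 and 5.65 ± 1.37 CPM, log2 fold change -0.44, limma adjusted p = 0.0279) was lost without WT 1, WT 11, cKO 12 or cKO 13, at 0.051 to 0.0556. Antisense genes cover all of its 2613 unshared exon bases, and also 1381 exon bases of Pcdhga11, 771 of Pcdhgb7 and 422 of Pcdhga12, and whether reads were counted by strand is not given in the sources used here. The calls of Pcdha9 to Pcdha12, Pcdhga2, Pcdhga3, Pcdhgb8 and Pcdhga12 were kept in all 12 fits that left out a mouse. Pcdhgb6, Pcdhga10, Pcdhgb7 and Pcdhga11 were also lost when all genes above 0 were tested and with the thalamic score as covariate. Their log2 fold changes in the latter fit were -0.46, -0.32, -0.46 and -0.36.

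Among the gamma isoforms that did not pass, Pcdhga4 had the most RNA per length in WT, at 7.79 CPM per kb. This value rests on 1.57 kb of unshared exon bases, the shortest in the array, since 3157 of its exon bases are shared. By CPM in WT, Pcdhga6 and Pcdhga7 were higher, at 13.7 and 15.1. Pcdhga4 was 12.2 ± 1.31 CPM in WT and 9.60 ± 2.26 in labelled cKO, with a log2 fold change of -0.34 (limma, adjusted p = 0.0786, and 0.0352 without cKO 14). Pcdhga1, the first isoform of the array, was 3.60 ± 0.327 and 2.89 ± 0.626 CPM, and its interval ran from -0.48 to -0.03 (limma, adjusted p = 0.121). Pcdhga6 had the smallest difference, 13.7 ± 1.18 and 12.05 ± 1.96 CPM, with a log2 fold change of -0.18 (limma, adjusted p = 0.182). The array's summed CPM was 176 ± 13.04 in WT and 136 ± 28.0 in labelled cKO, with ranges of 160 to 197 and 93.0 to 170. Its mean position was 10.4 in both groups and its effective number of isoforms 17.0 and 16.9. The largest difference in share was 1.13 points.

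Over the tested isoforms of an array, Spearman's rho between log2 fold change and position was -0.90 for alpha (n = 8), -0.78 for beta (n = 21) and -0.11 for gamma (n = 19). These are descriptions across isoforms that share libraries, and for alpha and gamma also constant exons, and isoforms are not replicates. In the authors' deposited table of their own test, the same rho was -0.88, -0.79 and -0.19. That table gave 11 isoforms lower at an FDR under 0.05, where 4.94% of its genes passed and 3.3% were lower. All 11 were among the 12 above, and the twelfth, Pcdhga11, had an FDR of 0.0568 in the authors' deposited table.

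Base composition and level were set beside position and fold change. GC content over the first 2400 transcript bases was 52.6% to 54.8% among alpha isoforms, 48.0% to 52.7% among beta and 48.8% to 54.5% among gamma. Its rho with position was -0.25, -0.56 and 0.13, and its rho with log2 fold change 0.14, 0.57 and -0.20. For beta, position and GC content therefore moved together, and their parts in the fold changes were not tested. Level per kb in WT had a rho with position of 0.31, 0.10 and -0.02, and with log2 fold change of -0.24, -0.22 and -0.10. The tested isoforms covered 0.557 to 2.63 CPM per kb in the alpha array, 0.511 to 4.46 in beta and 0.907 to 7.79 in gamma.

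The size of the differences varied between the mice labelled cKO, while the alpha differences grew more negative toward the 3′ end in all 5. For each mouse labelled cKO, log2(CPM + 1) of an isoform was set against its mean over all WT mice, a reference that these 5 share. Each WT mouse was set against the mean of the other WT mice, so its reference differs. The rho of these differences with alpha position was -0.90 in cKO 8, -0.74 in cKO 9, -0.90 in cKO 12, -0.88 in cKO 13 and -0.74 in cKO 14. In WT mice it ran from -0.64 to 0.69. For beta it was between -0.69 and -0.25 in labelled cKO mice and between -0.39 and 0.39 in WT mice, so the groups overlapped. For gamma it was between -0.10 and 0.01, inside the WT range of -0.33 to 0.50.

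Library cKO 13 was lowest and cKO 14 nearest to WT in the alpha and gamma arrays. In the beta array cKO 8 was lowest, with a sum of 114 CPM against 123 in cKO 13, and cKO 12 had the median difference nearest to 0, at -0.02. Over all isoforms, in cKO 13, 35 of 48 isoforms lay below every WT library, 19 of 19 gamma isoforms among them, with a median gamma difference of -0.81. In cKO 14, 7 of 48 did, with a median gamma difference of -0.07. The counts were 31 in cKO 8, 17 in cKO 9 and 22 in cKO 12. WT mice set against the other 6 WT libraries gave counts of 0 to 19, with 19 in WT 6 and 12 in WT 7, so cKO 9 and cKO 14 lay within the WT range. Over all tested genes, 16.6% to 23.3% lay below every WT library in these 5 libraries. Smc3 was 126 CPM in cKO 13 and 136 CPM in cKO 14, within 116 to 144 CPM over the group.

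**Figure D4:**
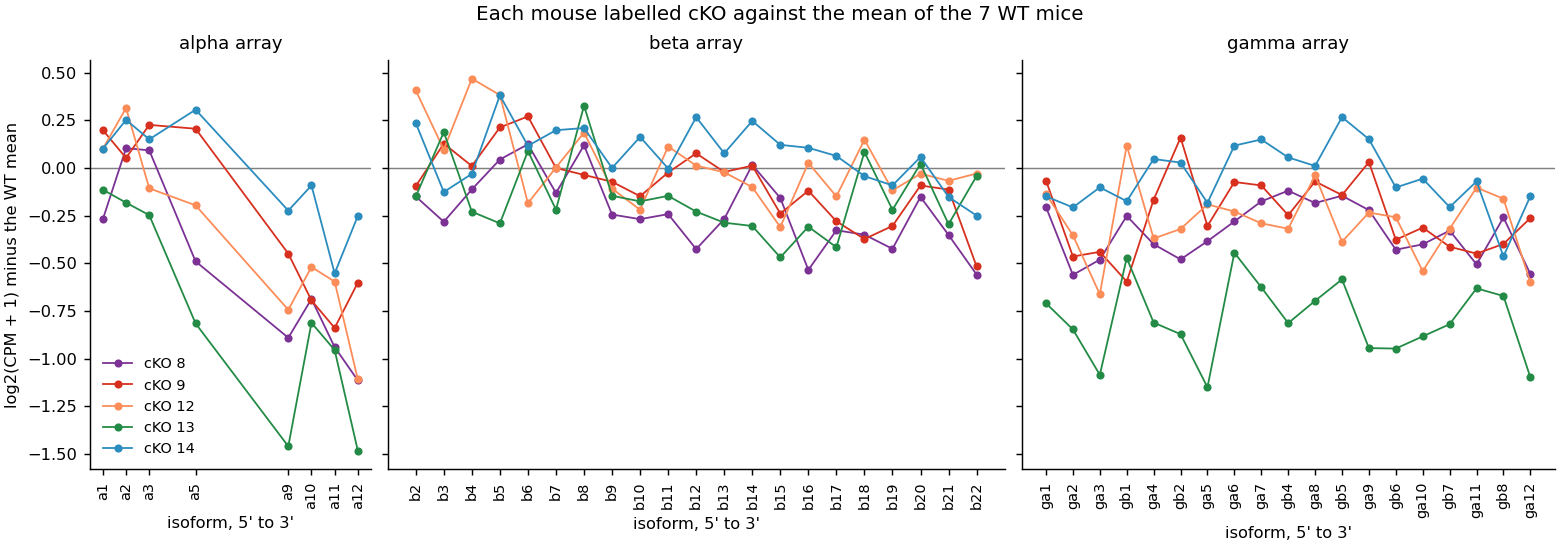
Difference of log2(CPM + 1) from the WT mean for each tested isoform along the alpha, beta and gamma arrays, with 1 line per mouse labelled cKO. In every one of the 5 mice the alpha line drops toward the 3′ end (rho -0.90 to -0.74), and the gamma lines lie at different heights, from a median of -0.81 in cKO 13 to -0.07 in cKO 14.

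Spread between mice was larger in the libraries labelled cKO. The median coefficient of variation of an isoform was 11.9% in WT, where counting error alone gives 8.09%, and 20.4% in labelled cKO, where counting error gives 9.68%. It was higher in labelled cKO for 40 of 48 isoforms (7 of 8 alpha, 15 of 21 beta and 18 of 19 gamma). Over all tested genes the medians were 8.19% and 9.22%, and 59.6% of genes were more variable in labelled cKO.

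Thalamic marker genes had a mean score of 6.65 in WT and 6.13 in labelled cKO, with ranges that overlapped, as given above. With their score as a covariate in the limma fit, 2 isoforms passed the threshold, Pcdha11 (log2 fold change -0.78, adjusted p = 0.0168) and Pcdhgb1 (-0.47, adjusted p = 0.0478), where 4.47% of all tested genes did (2.9% lower and 1.57% higher). The 8 called gamma isoforms had log2 fold changes between -0.56 and -0.32 in that fit, against -0.55 to -0.35 without the covariate, with limma adjusted p between 0.0572 and 0.229. All 19 gamma values stayed below 0. Over the arrays 40 of 48 values were below 0, with a median of -0.17, against 39 and -0.20 without the covariate. With it, Pcdhb9, Pcdhb10 and Pcdhb14 turned above 0, and Pcdha1, Pcdhb2, Pcdhb3 and Pcdhb4 turned below 0. By position, the median was -0.01 for the low-numbered and -0.72 for the high-numbered alpha isoforms, and rho with position was -0.86 for alpha and -0.67 for beta. For gamma it was 0.12, against -0.11 without the covariate. Neuron markers (8 genes) had scores of 9.21 to 9.36 in WT and 9.36 to 9.48 in labelled cKO, with 2 of 8 higher and 0 lower past the threshold. Markers of oligodendrocyte precursors (3 genes) had scores of 5.62 to 5.78 and 5.78 to 6.04, with 2 of 3 higher. In the main fit, 6.54% of all tested genes were higher and 7.6% lower past the threshold. Hypothalamic markers differed widely between libraries, and cKO 13 and cKO 14 lay far apart in them, as given above. With the hypothalamic score as covariate, a fit added after seeing the data, 14 isoforms passed the threshold (limma, adjusted p under 0.05), where 19.3% of all tested genes did. They held the 12 above, Pcdhga4 and the beta isoform Pcdhb17. The part of the other cell types in the isoform values was not tested.

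The C-type isoforms lie at the 3′ end of the alpha and gamma arrays and are not part of the alternate set. Their summed CPM was 26.8 in WT and 30.7 in labelled cKO for alpha and 117 and 122 for gamma, and 1 of 5 passed the threshold (20%, near the 14.1% of all tested genes), Pcdhgc5, which rose by 0.32 on the log2 scale (limma, adjusted p = 0.0235).

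Among 22 listed regulators of these promoters (cohesin, its loaders and release factors, CTCF and silencing factors), 21 were tested, 3 fell and 4 rose, or 33.3%, against 14.1% of all tested genes. The 3 that fell were Mau2, part of the cohesin loader (log2 fold change -0.16), Pds5b, a cohesin-associated regulator (-0.24), and the DNA methyltransferase Dnmt3a (-0.22). The 4 that rose include Smc3 itself (0.67, as given above). Smc1a, the partner of Smc3 in the ring, rose by 0.13, and the cohesin subunits Stag1 and Stag2 by 0.33 and 0.19. Ctcf itself was 74.6 ± 3.55 CPM in WT and 71.4 ± 5.31 in labelled cKO (limma, adjusted p = 0.412). Of 10 genes that act with protocadherin proteins or process them, Ptk2b, a kinase of the focal adhesion family, fell (log2 fold change -0.66), Nlgn1, a synaptic adhesion protein, rose (0.19) and 8 did not pass. That is 20% past the threshold, near the 14.1% of all tested genes. Of 13 tested genes beside or between the arrays, 5 had an unadjusted p under 0.05 (limma; 31.1% of all tested genes did), 0 fell past the threshold and 1 rose, Ndufa2, a subunit of respiratory complex I (0.20). Their median was 0.03.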

How the data were processed

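The authors deposited normalized CPM per gene for 12 libraries, and the results of their own test as log2 fold changes, log2 mean CPM and p-values. Per the submitters' processing notes the tools were bcl2fastq, FastQC 0.11.9, STAR 2.7.9a, SAMtools, Subread and featureCounts; genome build, annotation and strand setting are not given in the sources used here. RNA was column-purified and messenger RNA isolated before library making, per the labels' protocols.

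Whole reads were recovered from the CPM steps (100% whole within a relative 1e-06), with size factors of 0.987 to 1.02 and a floor of 3 reads at 0.0436 to 0.178 CPM, which covers counting error only, since reads carry no molecular identifiers. Replicates differed beyond sampling noise in all 31 pairs within a group (chi-square per degree of freedom 3.04 to 26.3). The main test was limma 3.58.1 in R 4.3.3 (eBayes with trend, two-sided) on log2(CPM + 1), 7 WT against 5 cKO libraries, without covariates, for genes whose mean reached 1 CPM. P-values were Benjamini-Hochberg adjusted, with a threshold of 0.05. Fold changes on this scale understate those of low genes. On simulated data with a log2 change of 0.5, 127 of 195 changed genes were recovered with 3 false calls among 15365 genes. With a change of 1, 178 of 192 were recovered with 12 false calls among 15367 genes. Array sums, shares and positions are descriptions without a test. Position is the isoform number for alpha and beta, and the order along the array for gamma A and B together. Unshared exon length and GC content come from GENCODE M21, which need not be the authors' annotation. Because that release gives 1 symbol to different alpha genes, those were matched through RefSeq, and which gene each symbol stands for in the authors' annotation could not be checked.

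Alternatives were another pseudocount, 2 scalings, 2 filters, eBayes without trend, a thalamic marker covariate, a hypothalamic one (added after seeing the data), count tests on recovered reads (edgeR 4.0.16, DESeq2 1.42.0), and each mouse left out. The members and lists were chosen with earlier results of these data known. Named isoforms are those past the threshold and, per array, the first, the last, the most abundant per length in WT, and those with the largest and smallest fold change; others are said to be chosen after their values were seen or are part of a fixed list. Cell type lists with values not given above: 0 genes of the cortical and striatal, astrocyte, oligodendrocyte, microglia, ependyma, choroid plexus and vascular lists passed the threshold, 1 of 10 hypothalamic genes was higher, and 0 of 3 serotonergic genes were high enough to test.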

Additional observations from a re-analysis of the deposited data

Results flagged for a closer look

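Over 114 sets of values, 96 of them 1 tested isoform in 1 group and 18 an array's sum, mean position or effective number in 1 group, the highest or lowest library stood apart by Dixon's criterion in 9. Chance gives about 1 in 20, or 5.7, and all 9 were isoforms. In WT these were Pcdha2 in WT 4 (4.44 CPM, next 3.45), Pcdhb10 in WT 6 (4.79 CPM, next 5.74), Pcdhb19 in WT 5 (7.35 CPM, next 5.87), Pcdhga3 in WT 15 (14.2 CPM, next 11.2), Pcdhgb4 in WT 6 (4.21 CPM, next 5.63) and Pcdhga10 in WT 11 (9.71 CPM, next 7.98). In the libraries labelled cKO they were Pcdhb10 in cKO 14 (6.69 CPM, next 5.20), Pcdhga1 in cKO 13 (1.80 CPM, next 2.98) and Pcdhga5 in cKO 13 (2.99 CPM, next 5.79). Of these, Pcdhga3 and Pcdhga10 are among the 12 isoforms past the threshold; Pcdhga3 kept its call without WT 15, and Pcdhga10 lost it without WT 11 (limma, adjusted p = 0.051).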

How the results depend on the processing

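The 12 isoforms past the threshold numbered 7 when all genes above 0 were tested (1544 genes past it in all). With the thalamic score as covariate they numbered 2, 1 of them shared with the 12. In that fit 40 of 48 log2 fold changes were below 0, with a median of -0.17, against 39 and -0.20 in the main fit. The isoforms below 0 were not all the same in these 2 fits. With the other alternatives the isoforms past the threshold were 12 (pseudocount 0.1, median centring, no trend, edgeR) and 10 (quantile normalization). They were 8 (minimum mean of 5 CPM), 15 (DESeq2) and 14 (hypothalamic covariate, added after seeing the data). With a mouse left out they were 8 (WT 1 or WT 11) to 14 (cKO 14). Over all tested genes, 1158 passed without WT 1, 1533 without WT 11 and 1456 without cKO 14, against 2172 in the main fit. The alpha median, -0.38 over 8 isoforms, was -0.75 at the minimum of 5 CPM, where 1 isoform was left, and -0.11 with all 10 above 0. The count of shares without overlap was 7 with C-type isoforms in the denominator. With a mouse left out, medians ran from -0.50 to -0.27 (alpha), -0.12 to -0.04 (beta), -0.43 to -0.24 (gamma A) and -0.39 to -0.23 (gamma B). The Spearman coefficient of fold change with position ran from -0.95 to -0.86, -0.81 to -0.72 and -0.16 to -0.05 (alpha, beta, gamma), log2 ratios of summed CPM from -0.62 to -0.36, -0.14 to -0.05 and -0.46 to -0.26, and differences in mean position from -1.50 to -1.25, -0.42 to -0.30 and -0.10 to -0.02. The effective number differed by -0.06 to 0.08, 0.13 to 0.34 and -0.15 to -0.01, share counts were 4 to 6, and the Smc3 log2 fold change was 0.64 to 0.71. Of 432 values for 20 named isoforms, 43 lost and 5 gained the threshold; the sign turned in some fits for Pcdha1 and Pcdhb9, which passed it in none of these fits, and for 0 of the 12 isoforms past it; the causes were not tested. No paired analysis was possible because the WT and cKO mice share none of their numbers.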
